A study of Mus musculus with 20 samples.

Results

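Tyrosine is written by 2 codons, TAC and TAT, and both are read by the same tRNA, whose wobble base in mammals is the modified base queuosine. The sites described here are the codons of mouse hippocampal mRNAs that encode tyrosine and that carried ribosome footprints, in animals with and without Qtrt1. Every row whose codon was TAC or TAT was taken from the 10 tables of footprints per codon and from the 10 tables of footprint enrichment around each codon. The tables listed 14858 tyrosine sites among 586153 sites of all codons, 8829 of them TAC and 6029 TAT, on 3848 mRNAs. Among codons with listed footprints the members were chosen by codon, not by their difference between genotypes.

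The animals were Qtrt1-/- mice and wild-type mice, with no other allele, treatment or strain named. The females were 3 wild-type and 3 knockout animals of 6 months and 21 or 22 days. The males were 2 wild-type and 2 knockout animals, 1 of each genotype aged 5 months and 16 days and 1 aged 6 months and 18 days. Hippocampi were lysed in the presence of cycloheximide, and each animal gave 1 footprint library and 1 input RNA library. The labels do not say how the allele was made. Bulk tissue cannot tell fewer cells of a type from less RNA per cell.

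Queuosine replaces guanosine at the wobble position of 4 tRNAs, those of tyrosine, histidine, aspartate and asparagine. Mammals cannot make the base and take it up from diet and gut microbes as queuine, which a transglycosylase of the subunits Qtrt1 (catalytic) and Qtrt2 inserts into the tRNA. The tyrosine tRNA carries a further galactose on its queuosine, and its genes contain an intron that must be spliced out. In ribosome profiling, nuclease-protected mRNA fragments mark where ribosomes stood, and more footprints at a codon are read as ribosomes spending more time there or as more of them arriving. The deposited values do not say which site of the ribosome the listed codon stands for.

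The sequences below are coding-strand stretches of 27 bases from GENCODE M21 transcripts on the mouse build GRCm38, with the tyrosine codon in capitals. They are shown because they hold the tyrosine sites with most footprints or with the smallest p-values between genotypes in the results that follow. Footprints were counted on the lower-case codon directly after the capitals. The first 6 hold TAC and the last 5 hold TAT.
Cpe, chr8:64609154-64609180, minus strand, coding exon 5: ttggctcgcgcgTACtcttctttcaac
Cplx1, chr5:108520153-108520179, minus strand, coding exon 3: actgtcatcaagTACctgcctgggcca
Id4, chr13:48261783-48261809, plus strand, coding exon 1: cacgttatcgacTACatcctggacctg
Mal, chr2:127640251-127640277, minus strand, coding exon 2: ctgatgatcttgTACataattggtact
Atp1b1, chr1:164438438-164438464, minus strand, coding exon 6: tattatccctacTACggcaaactcctg
Pgrmc1, chrX:36598401-36598427, plus strand, coding exon 1: atcttcctgctcTACaagatcgttcgc
Vps26b, chr9:27010406-27010432, minus strand, coding exon 5: ttctctgtgcgcTATtacctcaacttg
Gpr37l1, chr1:135161210-135161236, minus strand, coding exon 2: ctgactgtggtcTATgccttctgtaca
Atp6ap2, chrX:12615811-12615837, plus strand, coding exon 9: atggatcctggaTATgatagcatcatc
Dpysl2, chr14:66807033-66807059, minus strand, coding exon 13: cctcgtggcctgTATgacggaccggta
Gpm6a, chr8:55047248-55047274, plus strand, coding exon 3: aagtatgtgatcTATggcattgcggct

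The footprint libraries held between 1071976 and 3032432 footprints assigned to codons, and the deepest was wild-type male 1. Of the tyrosine sites, 1404 were listed in all 10 libraries and 4926 in 1 library only, with a median of 3 footprints over the 10 libraries together. Counts this low limit what single sites can show, and pooled values over many sites are the more precise measure. Markers of neighbouring tissue differed between libraries: the summed level of 14 choroid plexus genes in footprints ran from 793 to 8371 CPM (counts scaled to library size) in wild-type females and from 3642 to 13721 in knockout females, against 12119 to 16750 over the 4 males. The 15 striatum markers ran from 680 to 1569 CPM in wild-type females, from 349 to 888 in knockout females and from 322 to 375 in males. In footprints the 8 hippocampal markers lay apart by genotype in each sex. They ran from 704 to 1084 CPM in wild-type against 1121 to 1202 in knockout females. In males they ran from 1052 to 1167 in wild type against 1189 to 1342 in knockout. In input RNA they overlapped in females, at 418 to 656 CPM in wild type against 636 to 701 in knockout. They lay apart in the input RNA of males, at 518 to 700 against 703 to 772. There was no marker of any of the 3 lists at 0 in every library.

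The largest change around tyrosine codons lay 1 codon downstream of them, where knockout animals had more footprints than wild-type animals in each sex. Enrichment here is the ratio of footprints at a position to the mean of the same mRNAs, so 1 means no enrichment, and position 1 means the codon directly after the reference codon towards the 3′ end. After TAC, wild-type females had an enrichment of 0.581, 0.582 and 0.621, and knockout females 0.954, 0.949 and 0.945. The wild-type males had 0.650 and 0.547, and the knockout males 0.807 and 0.935. The lowest knockout value in either sex lay above every wild-type value, and the knockout females lay closer together than any other group.

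After TAT the level was higher in all animals and the genotypes were closer in fold change. Wild-type females had 1.59, 1.63 and 1.55 and knockout females 1.95, 1.91 and 1.85, while wild-type males had 1.53 and 1.57 and knockout males 1.68 and 1.98. The groups again did not overlap within a sex, although knockout male 1 stood nearer to the wild-type males than knockout male 2 did.

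**Figure D1:**
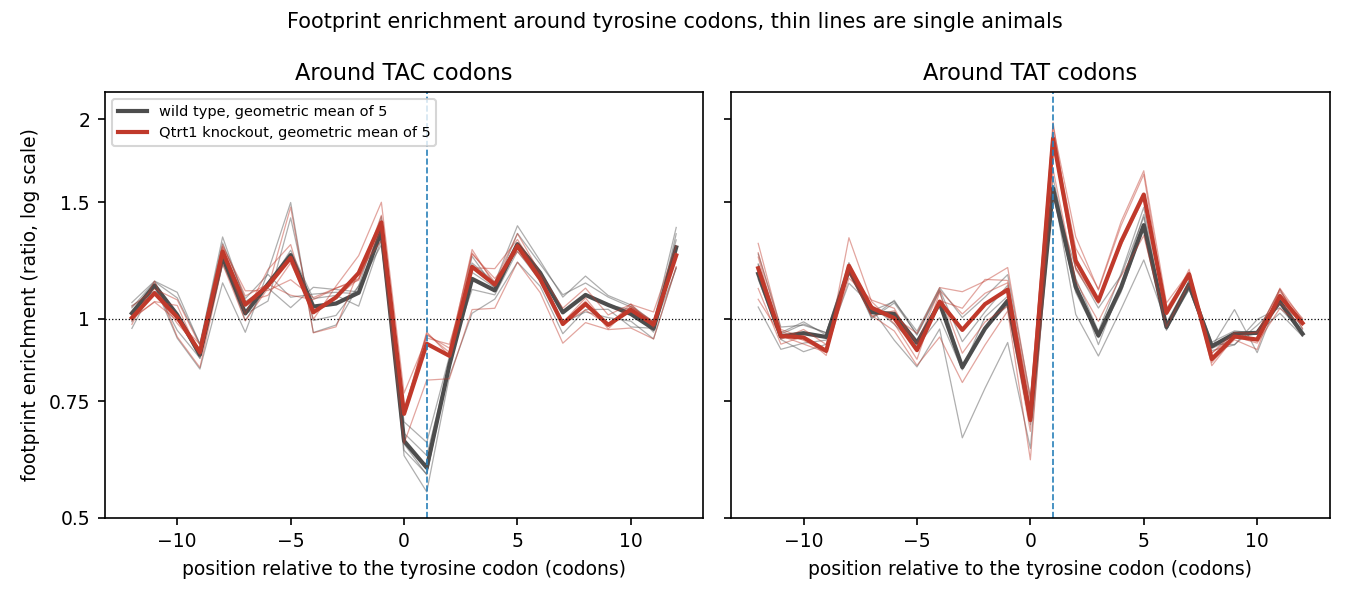
Footprint enrichment (ratio, log axis) against position in codons around TAC (left) and TAT (right); thin lines are single animals, thick lines the geometric mean of 5 wild-type (grey) and 5 knockout (red) animals. At position 1, marked by the dashed line, the knockout line lies above the wild-type line in both panels. Weighted equally by sex, unlike the lines, knockout and wild-type levels there are 0.908 and 0.595 after TAC. After TAT they are 1.86 and 1.57.

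On the log2 scale, averaged over the sexes with equal weight, the knockout was higher by 0.61 after TAC and by 0.25 after TAT, or 0.43 for the mean of the 2 codons. Each of these 3 differences had an exact two-sided permutation p of 0.0167, with genotype exchanged within sex, which is the smallest the 10 animals allow. Adjusted over the 16 tyrosine comparisons at positions 0 to 3 these p-values became 0.0533, so none passed 0.05 on that test. In limma, fitted over all 61 sense codons at position 1, 4 of 61 codons were called (6.56%), and both tyrosine codons were among them. TAC rose by 0.61 ± 0.06 (SE, adjusted p = 0.000249, limma) and TAT by 0.25 ± 0.05 (adjusted p = 0.0168, limma), beside AAC, an asparagine codon, which rose by 0.39 ± 0.04, and GAC, an aspartate codon, which fell by 0.21 on the log2 scale.

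The call on TAC held in limma in every fit that left out 1 animal, with adjusted p between 8.85e-06 and 0.00193. The call on TAT did not: its adjusted limma p was 0.0513 without wild-type female 1, 0.0564 without knockout female 1 and 0.0578 without knockout female 2, and 0.0884 when each library was centred on its median codon. With same-numbered animals as a replicate block, which in the males pairs animals of the same age, TAT was not called (adjusted p = 0.0925, limma) and TAC was (adjusted p = 0.0149), among 2 codons called. The direction of TAT was the same in all of these. With the p-values adjusted over all 11041 combinations of codon and position, TAC remained called (adjusted p = 0.0221, limma) and TAT did not (adjusted p = 0.0824), among 26 calls (0.235%). In females alone 1121 combinations were called that way (10.2%), with TAC at an adjusted p of 0.0115 and TAT at 0.0416 (limma). In males alone limma called 0 of 11041 that way, with 331 at an unadjusted p under 0.05 and both tyrosine codons at an adjusted p of 0.968.

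**Figure D2:**
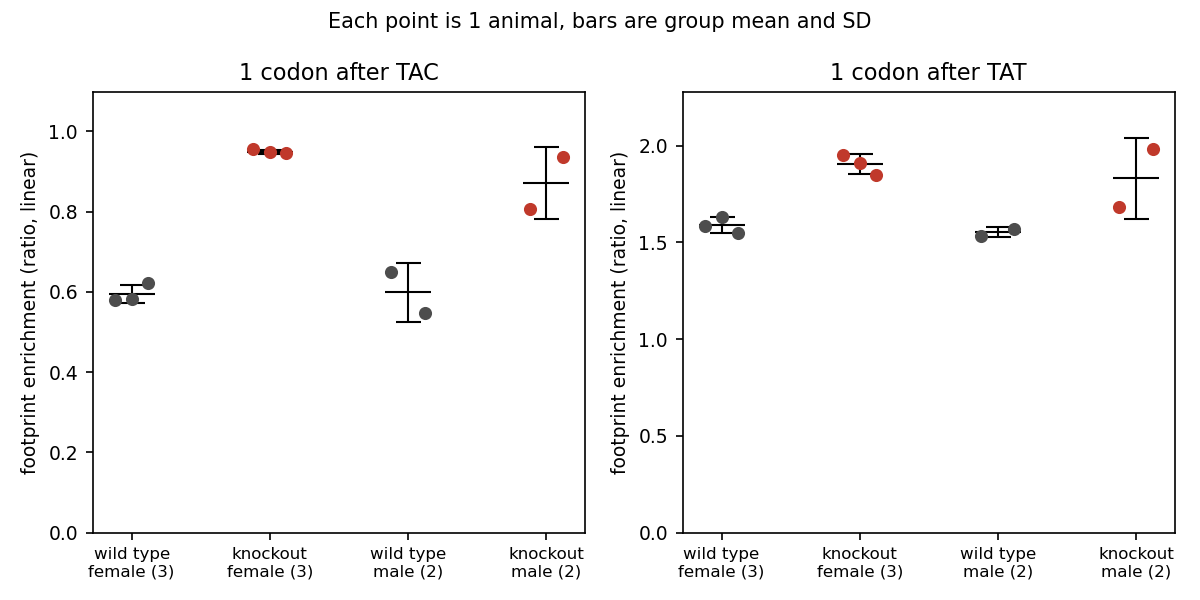
Footprint enrichment (ratio, linear axis from 0) 1 codon after TAC (left) and after TAT (right), each point 1 animal, with the group mean and SD. The 5 knockout animals lie between 0.807 and 0.954 after TAC and the 5 wild-type animals between 0.547 and 0.650.

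The change at position 1 had the same direction in both sexes, here with p-values adjusted over the 61 codons at that position. In females TAC was higher by 0.68 ± 0.08 (adjusted p = 0.000909, limma) and TAT by 0.26 ± 0.06 (adjusted p = 0.0397, limma), among 6 of 61 codons called (9.84%). In males TAC was higher by 0.54 ± 0.10 (adjusted p = 0.0120, limma), 1 of 2 called codons (3.28%), and TAT by 0.23 ± 0.08 (adjusted p = 0.261). The difference between the sexes was 0.13 ± 0.12 for TAC and 0.03 ± 0.10 for TAT, with limma adjusted p of 0.697 and 0.861. An exact permutation within each sex alone cannot go below 0.1 in the females or 0.333 in the males, and both codons sat at those limits.

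Among the 61 codons, ranked from the highest enrichment at position 1, TAC moved from rank 40 in wild type to rank 29 in knockout, and TAT from rank 9 to rank 7. TAT exceeded TAC 2.64-fold in wild type and 2.04-fold in knockout, in all 5 animals of each genotype (exact sign-flip permutation p = 0.0625 for each, the smallest that 5 animals allow). The gap between the C-ending and the T-ending codon narrowed as a ratio: the log2 of TAC over TAT averaged -1.40 ± 0.12 over the 5 wild-type animals (SD) and -1.03 ± 0.04 over the 5 knockout animals.

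The change in this gap was tested for each codon pair that differs only in a final C or T; whether the tyrosine pair changed more than the others was not tested. Of 16 such pairs, 3 changed their gap past 0.05 in limma. TAC minus TAT changed by 0.36 ± 0.05 (adjusted p = 8.3e-05), AAC minus AAT by 0.23 ± 0.04 (adjusted p = 0.000244) and the arginine pair CGC minus CGT by -0.20 ± 0.05 (adjusted p = 0.00745). The pairs of histidine and aspartate, also read by queuosine tRNAs, changed by -0.07 ± 0.06 and -0.07 ± 0.05 (limma adjusted p = 0.487 for each).

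**Figure D3:**
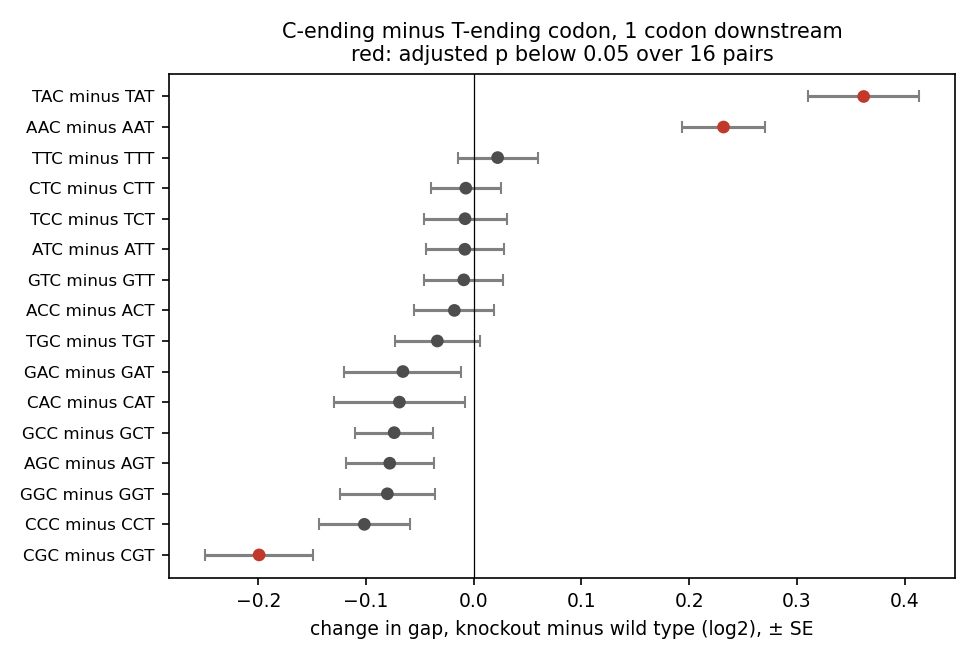
Change between genotypes in the log2 gap of the C-ending over the T-ending codon, 1 codon downstream, for the 16 codon pairs, with the SE from limma; red points have an adjusted p below 0.05. The tyrosine pair lies farthest to the right at 0.36, and the asparagine pair follows at 0.23.

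The size of the gap change depended on the scale. In linear enrichment TAC rose by 0.314 ± 0.033 (adjusted p = 0.000117, limma) and TAT by 0.297 ± 0.053 (adjusted p = 0.00464, limma), so both gained about the same amount of enrichment from different starting levels. On that scale the gap changed by 0.0155 of the wild-type mean of the 2 codons (exact permutation p = 0.667), and in males alone it changed by -0.00536. The statement that TAC changed more than TAT holds for fold changes only.

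At the tyrosine codon itself, position 0, the differences between genotypes were smaller. Which step of decoding a position marks was not tested, because the site of the ribosome is not stated for the listed codon. In females, wild-type enrichment at TAC was 0.650 ± 0.020 (SD, n = 3) and knockout enrichment 0.725 ± 0.004 (SD, n = 3). In males it was 0.660 ± 0.055 (SD, n = 2) without and 0.710 ± 0.088 (SD, n = 2) with the knockout, and the groups overlapped. TAT had 0.728 ± 0.035 and 0.745 ± 0.012 in females, wild type first, and 0.682 ± 0.064 and 0.644 ± 0.045 in males. Neither codon was among the 5 of 61 called at position 0 (8.20%): the change was 0.13 ± 0.06 for TAC (adjusted p = 0.153, limma) and -0.02 ± 0.05 for TAT (adjusted p = 0.783, limma). The gap between them changed by 0.15 in the same direction as at position 1, with the genotypes apart in each sex. Its exact permutation p was 0.0167, or 0.0533 after adjustment over the 16 tyrosine comparisons.

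Farther downstream the 2 codons parted. TAC changed by 0.04 ± 0.04, 0.06 ± 0.05 and 0.03 ± 0.04 at positions 2, 3 and 4, none called in limma. TAT was higher in knockout by 0.12 ± 0.05, 0.16 ± 0.05 and 0.22 ± 0.05 at those positions, and was called at position 4 (adjusted p = 0.0285, limma), 1 of 6 codons called there (9.84%), but not over all positions (adjusted p = 0.0780, limma). Over all positions tested, with p-values adjusted within each position, TAT was called at 9 and TAC at 4. The matching counts for other codons are not given here, so these calls do not set tyrosine apart. At positions 0 to 5, between 0 and 6 of all 61 codons were called at each position. The tyrosine calls included small changes far from the codon, such as -0.07 for TAT at position -9 and 0.09 at position 40. For TAC they included -0.07 at position -42 and -0.10 at position 9. With single sites limited to 10 times the mean of their mRNA, the TAT change at position 4 became 0.10 (exact permutation p = 0.517), against 0.22 (p = 0.0333) for the same recomputed values without that limit.

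The share of all footprints on listed tyrosine codons was 2.07% ± 0.07 (SD, n = 3) for wild-type females against 2.29% ± 0.02 (SD, n = 3) for the knockouts, and 2.07% ± 0.19 (SD, n = 2) against 2.14% ± 0.24 (SD, n = 2) for males (exact permutation p = 0.200 over both sexes). The codons directly after tyrosine held 2.97% ± 0.04 and 4.11% ± 0.08 in the females and 2.90% ± 0.16 and 3.80% ± 0.48 in the males (exact permutation p = 0.0167). Of the footprints after tyrosine, the part that followed TAC was 37.5% ± 2.1 and 44.2% ± 0.1 in the females and 41.1% ± 2.4 and 45.6% ± 1.9 in the males (exact permutation p = 0.0167). For comparison, 57.4% of the 168460 tyrosine codons in the matched coding sequences are TAC.

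Occupancy recomputed from the tables of footprints per codon gave the same picture, from the same footprints. Over the codons listed in any library, the codon after tyrosine was higher in knockout by 0.44 on the log2 scale (exact permutation p = 0.0167) and the tyrosine codon itself by 0.05 (p = 0.333). The 10 sites with most footprints held 21.4% of the footprints after TAC and 23.7% of those after TAT. Without those 10 sites of each codon, the change was 0.51 after TAC and 0.22 after TAT (exact permutation p = 0.0167 for each). With sites limited to 10 times the mRNA mean it was 0.37 after TAC (p = 0.0167) and 0.10 after TAT (p = 0.0833), so TAT no longer passed 0.05 on the exact permutation.

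The change after tyrosine was found in each of the 4 stretches of the coding sequence examined. After TAC the knockout was higher by 0.69 for tyrosines at codons 15 to 100, by 0.59 at 101 to 300, by 0.60 at 301 to 600 and by 0.59 beyond 600. After TAT the values were 0.31, 0.21, 0.29 and 0.22 in the same order. All 8 had an exact permutation p of 0.0167 and knockout animals above all wild-type animals within each sex.

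The level after tyrosine differed with the amino acid that came next, and, averaged over the sexes, the knockout value was above the wild-type value for each of them with enough footprints. In wild-type females the enrichment after TAT was 3.33 where glutamate followed, 2.79 where aspartate followed and 2.61 where glycine followed, but 0.453 where glutamine followed. After TAC it was 1.37 before glutamate and 0.239 before phenylalanine. Knockout was higher in 19 of 19 following amino acids after TAC, by 0.23 to 0.87, and 16 of them passed 0.05 after adjustment over the 37 combinations of codon and amino acid (exact permutation). After TAT it was higher in 18 of 18, by 0.05 to 0.66, and 9 passed. The exact p cannot go below 0.0167, so an adjusted value here depends on how many combinations reach low values together. Other codons were not grouped this way, so these counts have no background beside them. In males alone the value after TAT before tryptophan was lower in knockout, 2.30 against 2.45 in wild type (-0.10).

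The largest change after TAC was before aspartate, from 0.938 to 1.82 in females and from 1.00 to 1.73 in males, and the smallest was before a second tyrosine, with a change of 0.23 (exact permutation p = 0.200). After TAT, the 3 highest levels were before glutamate, aspartate and glycine in wild-type females. The value before aspartate rose from 2.79 to 3.70 in females and from 2.79 to 3.59 in males (0.38, exact permutation p = 0.0167, adjusted 0.0294), while those before glutamate and glycine changed by 0.14 each (exact permutation p = 0.0667 and 0.117). Grouped by the amino acid before tyrosine, knockout was higher in 20 of 20 groups for TAC and in 19 of 20 for TAT, where alanine was the exception at -0.22 (exact permutation p = 0.0667). These groups come from the same libraries and are not independent of each other.

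**Figure D4:**
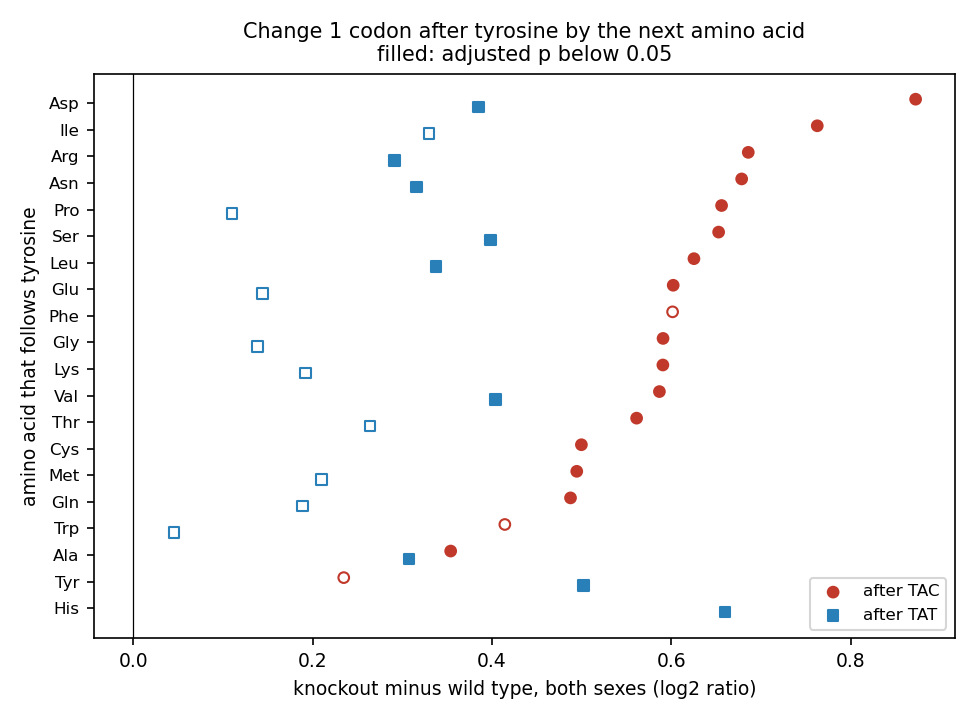
Log2 difference, knockout minus wild type over both sexes, 1 codon after TAC (red circles) and TAT (blue squares), by the amino acid that follows tyrosine; filled symbols have an adjusted p below 0.05 and amino acids with under 100 footprints in a library are left out for that codon. All symbols lie above 0, with TAC between 0.23 and 0.87 and TAT between 0.05 and 0.66.

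The change was also counted per mRNA, among mRNAs with at least 100 footprints in every library. Mean occupancy after TAC was higher in knockout for 905 of 1359 mRNAs (66.6%) and after TAT for 692 of 1289 (53.7%). The same count was not made for other codons, so these shares have no background beside them. At 177 and 203 mRNAs, respectively, no footprint followed the codon in either genotype. The median over mRNAs moved from 0.326 to 0.462 after TAC and from 0.680 to 0.743 after TAT.

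Single sites were tested with edgeR on footprint counts, each relative to the other footprints of its mRNA in the same library, so that a change in the mRNA's level does not count. Over both sexes 734 of 36642 sites of all codons passed an adjusted p of 0.05 (2.00%), 447 of them higher in knockout (1.22%). After TAC 65 of 576 tested sites were called and after TAT 20 of 691, and all 85 were higher in knockout. They lay on 78 mRNAs of 78 genes at 85 distinct genome positions, with changes between 0.81 and 2.49 (log2) and a median of 1.31. Sites after tyrosine were 3.46% of the sites tested and 19.02% of the sites called higher. The sites tested include sites that reached the filter on low counts in knockout libraries only. The calls and this share were not recounted without them, so the share is no test of a tyrosine excess. On the tyrosine codons themselves, 19 of 511 tested TAC sites were called (3.72%), 15 higher and 4 lower in knockout. Of 352 tested TAT sites 3 were called (0.852%), 1 higher and 2 lower.

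The median change was 0.60 over the sites tested after TAC, 0.31 after TAT and 0.00240 over all sites. Of the 576 TAC sites, 176 reached the filter on low counts in knockout libraries only, as did 118 of the 691 TAT sites. In wild-type libraries only, 33 TAC and 62 TAT sites reached it. Over all codons 4454 sites reached it in knockout libraries only and 7036 in wild-type libraries only. Among sites that reached the filter in wild-type libraries the medians were 0.48 after TAC, 0.20 after TAT and -0.09 over all codons. Ranked by the share of sites called higher among the 61 preceding codons, TAC was the first at 11.3% and TAT had rank 6 at 2.89%, while the histidine codon CAT had 6.00% and AAC 5.97%. These shares and medians describe the tested sites and support nothing further. Among the 882 sites after tyrosine that reached the filter in wild-type libraries, knockout animals lay above all wild-type animals in each sex at 120 (13.6%) and below at 13, against 3.35% above and 4.44% below over all codons.

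The number of sites called depended strongly on single animals. It fell from 85 to 2 without knockout male 2, to 9 without knockout female 1, to 27 without wild-type female 2, to 36 without knockout female 2 and to 46 without wild-type female 1, and rose to 149 without wild-type male 1. Every call was higher in knockout in each of those 6 fits but the last, where 142 of 149 were. The calls over all codons in those fits are not given here. Whether calls changed at tyrosine sites alone therefore cannot be read from these counts. In females alone 180 of the 1267 sites were called, 164 higher and 16 lower, beside 8.72% of all sites called and 4.72% called higher. In males alone edgeR called 0 of 36642 sites, with 1618 at an unadjusted p under 0.05, of which 114 followed tyrosine.

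**Figure D5:**
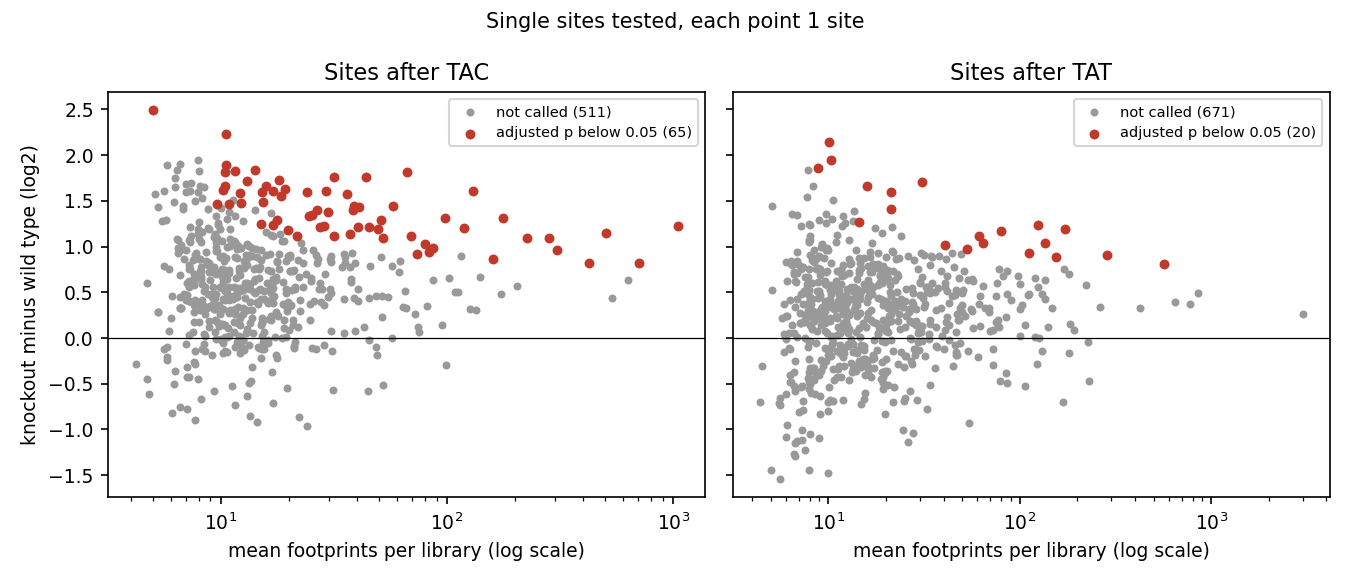
Change between genotypes (log2) against mean footprints per library (log axis) for the 576 tested sites after TAC (left) and the 691 after TAT (right); red points have an adjusted p below 0.05. The 65 and 20 called sites all lie above 0.

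Of the 6 TAC sites with most footprints, 4 were called, all higher in knockout. Values here are footprints on the codon after tyrosine per 1000 footprints elsewhere on the mRNA. After tyrosine 285 of Cpe, carboxypeptidase E, which trims neuropeptide precursors, wild-type females had 28.1, 19.3 and 27.7 and knockout females 82.1, 72.5 and 58.5. The wild-type males had 24.2 and 30.4 and the knockout males 36.9 and 67.8, so the groups did not overlap in either sex (change 1.22 ± 0.22, adjusted p = 0.00827, edgeR). Tyrosine 73 of Mal, a myelin proteolipid, gave 254, 352 and 197 in wild-type against 1019.9, 806 and 615 in knockout females. In the males it gave 355 and 462 against 537 and 764 (1.14 ± 0.22, adjusted p = 0.0102, edgeR).

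Tyrosine 247 of Atp1b1, the beta subunit of the sodium pump, gave 28.9, 38.6 and 32.8 in wild-type against 64.9, 45.5 and 51.7 in knockout females. In the males it gave 29.2 and 20.8 against 33.7 and 63.8, again without overlap in either sex (0.82 ± 0.22, adjusted p = 0.0456, edgeR).

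The other 3 of the 6 TAC sites with most footprints overlapped between genotypes in at least 1 sex. Tyrosine 43 of Pgrmc1, a haem-binding membrane protein, was called (0.82 ± 0.23, adjusted p = 0.0476, edgeR), where the males had 131 and 127 without and 117 and 240 with the knockout. Tyrosine 165 of Enc1, a kelch-family protein, was not called (0.64 ± 0.21, adjusted p = 0.0984). Tyrosine 98 of Ttr, the thyroid hormone carrier secreted by the choroid plexus, was not called either (0.43 ± 0.24, adjusted p = 0.328), with 9 to 1175 footprints per library.

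Of the 6 TAT sites with most footprints, 1 was called. The codon after tyrosine 86 of Gpm6a, a neuronal membrane glycoprotein, held the most footprints of any codon after tyrosine, a mean of 3003 per library. It changed by 0.27 ± 0.19 (adjusted p = 0.463, edgeR). Wild-type females had 59.5, 65.5 and 71.6 and knockout females 74.2, 79.5 and 85.5, while wild-type males had 89.7 and 132 and knockout males 117 and 146. Tyrosine 335 of Atp6ap2, an accessory subunit of the vacuolar proton pump, changed by 0.49 ± 0.20 (adjusted p = 0.179) with no overlap in either sex. Tyrosine 410 of Serinc1, a serine incorporator, 499 of Dpysl2, an axon growth protein also known as CRMP2, and 203 of Ptprn, a dense-core vesicle protein, changed by 0.37 ± 0.21, 0.40 ± 0.20 and 0.32 ± 0.21, none past the threshold. The called site followed tyrosine 368 of Gpr37l1, a glial receptor (0.91 ± 0.23, adjusted p = 0.0304, edgeR), where the males overlapped at 87.8 and 100.1 in wild type and 98.4 and 185.5 in knockout.

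Among called sites whose genotypes did not overlap in either sex, the 12 with the smallest p comprised 11 TAC sites and 1 TAT site. Beside Cpe and Mal they included tyrosine 123 of Cplx1, complexin 1, which binds the synaptic SNARE complex (93.97, 158 and 128 in wild-type against 255, 389 and 271 in knockout females, and 153 and 116 against 273 and 413 in males). Its change was 1.31 ± 0.23 (adjusted p = 0.00827, edgeR). Tyrosine 100 of Id4, an inhibitor of basic helix-loop-helix transcription factors, had 112, 110 and 102 against 500, 399 and 203 in females and 172 and 133 against 217 and 348 in males (1.31 ± 0.26, adjusted p = 0.0102, edgeR).

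The TAT site of that set followed tyrosine 270 of Vps26b, a retromer subunit, and its next codon was TAC, as the sequence shows. It had 87.0, 40.5 and 83.7 in wild-type and 337, 341 and 179 in knockout females, and 78.5 and 133 against 232 and 330 in males (1.70 ± 0.30, adjusted p = 0.00827, edgeR). A further 5 were TAC sites with changes between 1.43 and 1.77, on Wdr47, a microtubule-associated protein, Pcdh17, a protocadherin, Eif3c, an initiation factor subunit, Ids, a lysosomal sulfatase, and Ddx28, a mitochondrial helicase. Their counts were low, with means of 29.1 footprints per library at Ddx28 and 31.8 at Pcdh17.

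Among the listed genes of queuosine, of tyrosine tRNA charging and of tRNA splicing, the deleted one alone was called. Qtrt1 itself had 28 to 94 footprints in the wild-type and 1 to 10 in the knockout libraries, and 66 to 88 input RNA counts in the wild-type and 24 to 29 in the knockout libraries. It fell by 3.25 in footprints (SE 0.32, adjusted p = 0.00102, edgeR), the 1 gene called of 13143 (0.00761%). In input RNA it fell by 1.47 (SE 0.14, adjusted p = 0.00356, edgeR), 1 of 104 called of 14164 genes (0.734%). The labels do not say which exons were removed.

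Of the 13 genes in the list, 12 were tested in footprints and 13 in input RNA, and Qtrt1 was the only one called in either. Its partner Qtrt2 changed by 0.09 ± 0.18 in footprints and by 0.09 ± 0.14 in input RNA. B3gntl1 and Gtdc1, which attach sugars to queuosine, changed by 0.05 ± 0.16 and 0.03 ± 0.12 in footprints. In input RNA they changed by 0.45 ± 0.23 and -0.09 ± 0.07. For footprints, the cytosolic tyrosyl-tRNA synthetase Yars changed by -0.05 ± 0.08 and the mitochondrial Yars2 by 0.02 ± 0.10. The splicing endonuclease subunits Tsen34 and Tsen54, the kinase Clp1 and the ligase Rtcb changed by between -0.14 and 0.24, and the queuine transporter Slc35f2 by 0.30 ± 0.20. The median change of the list was 0.0264 in footprints and 0.0113 in input RNA, against 0.000789 and 0.00906 over all genes tested.

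In footprints, the hippocampal markers were higher in knockout in both sexes without overlap. Those of choroid plexus and striatum overlapped between genotypes in each sex. Input RNA differed from this: the hippocampal markers overlapped in females. The striatum markers lay apart there in males, at 425 to 430 CPM in wild type against 456 to 469 in knockout. The part of these markers in the change after tyrosine was not tested, and that of the hippocampal markers cannot be told apart from genotype. The mean change of the 2 codons was 0.39 in the males, whose hippocampal markers differed as well. It was 0.42 without wild-type female 1 and 0.43 without wild-type female 2, the libraries with the lowest choroid plexus levels. Leaving out 1 animal cannot separate tissue mix from genotype.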

How the data were processed

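Ribosome footprints and input RNA of 10 hippocampi were analysed. Per the submitters' processing notes the tools were cutadapt 1.8.1, Trimmomatic 0.39, Bowtie 1.0.0 and 1.2.2 and SAMtools 0.1.19. Their roles and the genome build: not given in the sources used here. Deposited values are whole read counts per gene, footprint counts per codon with the authors' occupancy ratio and percent of the coding sequence covered, and the authors' enrichment ratio per codon at 181 positions. The occupancy ratio and percent covered were not tested.

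Gene counts summed to between 5357812 and 15517982 per footprint library and between 9000662 and 13637370 per input library. Codons were matched to GENCODE M21: in 10963 of 11113 mRNAs every listed codon matched. Enrichment recomputed as summed footprints over summed mRNA means differed from the deposited ratio by at most 0.144 (log2) over 620 values, which fixed the direction of the positions.

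Log2 enrichment was compared by exact permutation of genotype within sex (120 assignments) and by limma 3.58.1 over 61 codons. Sites with at least 20 footprints in all and 10 others on the mRNA in each library, and genes, were tested with edgeR 4.0.16 quasi-likelihood (filterByExpr; mRNA offset for sites, TMM for genes), Benjamini-Hochberg adjusted. Site tables carried the mRNA offset without TMM on top. The limma and edgeR scripts were tested on simulated data. Same-numbered females did not deviate together, so their numbers were not treated as pairs. Same-numbered males shared an age. With so few males per genotype the same check cannot decide their pairing, and the main fits left them unpaired. Fits with same-numbered animals as a replicate block are given beside the main ones. The p-values measure the spread between these animals. The named sites are the 6 TAC and 6 TAT sites with most footprints and the 12 called sites of smallest p with genotypes apart in each sex, 1 per mRNA; some of these sites and listed genes are not reported here. Members, lists and tests were chosen with earlier results of these data known. Alternatives were another scale, centring, position, adjustment, tool, filter, pairing and leaving out each animal; caps and exclusion of top sites at position 1, whole coding sequences, the crossed pairing and the counts over sites that passed the filter in wild-type libraries were chosen after seeing the data.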

Additional observations from a re-analysis of the deposited data

How the results depend on the processing

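With same-numbered animals paired as a replicate block, the changes of 0.43 (both codons), 0.61 (TAC), 0.25 (TAT), 0.36 (gap) and 0.44 (occupancy after tyrosine) were unaltered and each exact p was 0.0625, the smallest 5 pairs allow. The TAT change was 0.11 (exact permutation p = 0.05) for the mean of positions 0 and 1 and 0.10 with sites capped at 10 times the mRNA mean. On the linear scale the gap change was 0.0155, and -0.00536 in males. The change at listed tyrosine codons was -0.0202 over whole coding sequences with capped sites. Codons called at position 1 numbered 2 when adjusted over all positions, 2 with the replicate block and 2 with the male numbers crossed. The replicate block called 65 tyrosine sites in place of 85, and its calls over all codons are not given here. Same-numbered animals correlated at -0.55, 0.0862 and -0.58 in females and -0.375 in males at position 1, so same-numbered females did not deviate together. With 2 males per genotype both male pairs must give the same value, so it cannot decide the pairing.

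Leaving out 1 animal at a time gave 0.37 to 0.48 for both codons, 0.55 to 0.67 for TAC, 0.19 to 0.31 for TAT, 0.29 to 0.43 for the gap, 0.38 to 0.50 for occupancy after tyrosine and 0.00285 to 0.0981 at listed tyrosine codons. It gave 2 to 35 codons called at position 1 (35 without wild-type male 1, 11 without knockout male 1, 7 without wild-type female 3, 2 without knockout female 1 and 2 without knockout female 2) and 2 to 149 tyrosine sites called. DESeq2 gave Qtrt1 no adjusted p in either assay (log2 change -3.30 and -1.47) and called no other gene of the list, so it has no count here. DESeq2 called 75 of 608 tyrosine sites with an adjusted p, 3 of them lower, and its calls over all codons are not given here. Over all alternatives for the main results, 136 kept direction and call or stayed within 1.5 times the count, 8 lost their call, 14 counts moved and 1 reversed. Depth limits single sites: the median tested tyrosine site had a mean of 13.8 footprints per library.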
